A study of Homo sapiens with 2 samples.

Results

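The genes described here are 10 well-characterised long non-coding RNA (lncRNA) genes: MALAT1, NEAT1, NORAD, H19, KCNQ1OT1, MEG3, HOTAIR, PVT1, TUG1 and OIP5-AS1. They were chosen by symbol. Each symbol was matched to its Ensembl identifier in GENCODE release 44, and all 10 identifiers had a row among the 58735 genes of both count tables. That release types 9 of the 10 as lncRNA and TUG1 as protein-coding, because a reading frame is annotated in it. All 10 are treated as lncRNA genes below, so the lncRNA class here is every gene of that type plus TUG1, 14735 genes in the tables.

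The tables came from MCF10a-Snail-ER cells, a human mammary epithelial line that stably carries the transcription factor Snail fused to the estrogen receptor. Both libraries came from cells grown with 100 nM tamoxifen over 1 day, an agent that switches the fusion on and with it a mesenchymal programme. No untreated library is analysed here, and whether the line is 1 clone is not given. The DMEM/F-12 medium held horse serum, EGF, hydrocortisone, cholera toxin and insulin. Polyadenylated RNA was read in 2 ways, as 1 Oxford Nanopore direct RNA library and as 1 Illumina TruSeq stranded mRNA library, from RNA that the series describes as matched, so the comparison is between platforms and not between treatments. Direct RNA sequencing reads native strands from an adapter joined to the poly(A) tail, whereas the Illumina kit fragments RNA and makes amplified cDNA. Depth differed 476-fold: gene counts summed to 403235 by Nanopore and to 191741714 by Illumina. A gene listed at 0 could have a level of up to 3 counts, or 7.44 CPM (counts per 1000000 counts of the library) in the Nanopore data and 0.0156 CPM in the Illumina data. There was no replicate on either platform. Every interval and test below therefore covers counting error in these libraries only, and amplified reads can repeat the same molecule. In bulk RNA, fewer cells that express a gene and less RNA per cell cannot be told apart. All 11 mammary epithelial markers examined had counts in both libraries and summed to 4065 and 3716 CPM (Nanopore and Illumina). The 11 markers of blood, endothelial, connective tissue, liver, neuronal and muscle cells summed to 27.3 and 37.4 CPM, with 24.8 and 26.5 CPM from the proteoglycan gene DCN. Of these 11, 2 had Nanopore and 8 had Illumina counts. PECAM1 had no Nanopore count and 5.07 CPM by Illumina, above the lowest epithelial marker, which had 4.02 CPM by Illumina. CD3E, NEUROD1 and MYH7 were at 0 in both libraries, and the part of these markers in the results was not tested.

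These RNAs act as transcripts and not through a protein. MALAT1 collects in nuclear speckles, which store splicing factors, and NEAT1 is the scaffold of nuclear paraspeckles. MALAT1 and the long NEAT1 isoform do not end at a poly(A) signal: RNase P cuts them before a tRNA-like RNA, and an A-rich stretch encoded in the genome folds with U-rich stretches upstream of it into a protective triple helix. The short NEAT1 isoform has an ordinary poly(A) tail. NORAD is a mostly cytoplasmic decoy for RNA-binding proteins of the Pumilio family. OIP5-AS1, also called Cyrano, carries a conserved site for the microRNA miR-7, and TUG1 is made in most tissues. PVT1 lies beside MYC. H19, KCNQ1OT1 and MEG3 are imprinted RNAs, and HOTAIR is transcribed from the HOXC cluster.

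The 3′ ends of these genes differ in kind, and they are shown because both libraries were made from RNA with poly(A). Sequences are from hg38, 5′ to 3′ along the RNA with T for U. In the MALAT1 line and in that of the long NEAT1 isoform, capitals mark the 20 bases richest in A. In the short NEAT1 isoform, NORAD, TUG1 and OIP5-AS1, capitals mark the poly(A) signal AATAAA. ENSG00000274072, printed whole, is a row of its own in both tables. It is typed as a small RNA with no symbol and lies where the tRNA-like mascRNA is cut from the MALAT1 precursor.
MALAT1 end, chr11:65505997-65506116 (+): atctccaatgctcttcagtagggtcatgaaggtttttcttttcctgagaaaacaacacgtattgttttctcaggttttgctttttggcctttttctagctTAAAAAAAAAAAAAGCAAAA
ENSG00000274072, chr11:65506117-65506173 (+): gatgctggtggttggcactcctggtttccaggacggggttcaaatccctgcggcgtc
NEAT1 long isoform end, chr11:65445421-65445540 (+): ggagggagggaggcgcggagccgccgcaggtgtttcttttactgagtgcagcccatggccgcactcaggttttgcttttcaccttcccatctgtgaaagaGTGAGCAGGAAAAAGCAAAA
NEAT1 short isoform end, chr11:65426454-65426513 (+): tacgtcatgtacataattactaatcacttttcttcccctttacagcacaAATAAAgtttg
NORAD end, chr20:36045618-36045677 (-): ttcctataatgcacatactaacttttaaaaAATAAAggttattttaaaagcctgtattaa
TUG1 longest transcript end, chr22:30979336-30979395 (+): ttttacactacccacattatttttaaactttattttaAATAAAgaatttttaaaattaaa
OIP5-AS1 longest transcript end, chr15:41306480-41306539 (+): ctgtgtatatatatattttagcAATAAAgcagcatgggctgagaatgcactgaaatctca

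The MALAT1 and long NEAT1 ends share 2 stretches of at least 9 bases. One is the 16-base run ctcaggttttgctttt, which ends 36 bases before the MALAT1 end and 41 bases before the NEAT1 end. The other is the last 11 bases of both, aaaaagcaaaa. The richest 20 bases held 17 A in the MALAT1 sequence before the cut site and 11 in the NEAT1 sequence. Among the longest transcripts of 14734 lncRNA genes, 2.93% had a window of 17 or more A in their last 300 bases and 73.1% had one of 11 or more. AATAAA or ATTAAA, searched on the transcript strand, lay in the last 50 bases of 47.8% of these lncRNA transcripts and of 72.4% of 19831 protein-coding ones. It was there in the longest transcript of NORAD, TUG1, OIP5-AS1, PVT1, H19 and HOTAIR, and not in that of MALAT1, NEAT1, KCNQ1OT1 or MEG3. The longest annotated MALAT1 transcript runs past the cut site, and the richest window in its own last 300 bases held 12 A, so it is not among those with 17. Over all annotated transcripts, 38 of 66 for MALAT1 and 2 of 9 for NEAT1 had either signal there.

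In CPM, which is not divided by length, MALAT1 and NEAT1 were the members furthest apart between the platforms. MALAT1 (ENSG00000251562, chromosome 11, 65497640 to 65508073, + strand) had 6 Nanopore and 31245 Illumina counts. The Nanopore counts gave 14.9 CPM, with a 95% Wilson interval of 6.82 to 32.5 CPM, whereas those of Illumina gave 163 CPM (161 to 165). At the Illumina level, the Nanopore depth would have given 65.7 counts. The Illumina CPM was 11.0-fold the Nanopore CPM, with an exact binomial interval of 5.03 to 29.8. NEAT1 (ENSG00000245532, chromosome 11, 65422774 to 65445540, + strand) had 15 and 70290 counts. The Nanopore level was 37.2 CPM (22.5 to 61.4), and the Illumina level of 367 CPM (364 to 369) was 9.85-fold as high (5.97 to 17.6). Both genes were thus about as far apart between the platforms, and the Nanopore and Illumina intervals of neither gene overlapped.

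**Figure D1:**
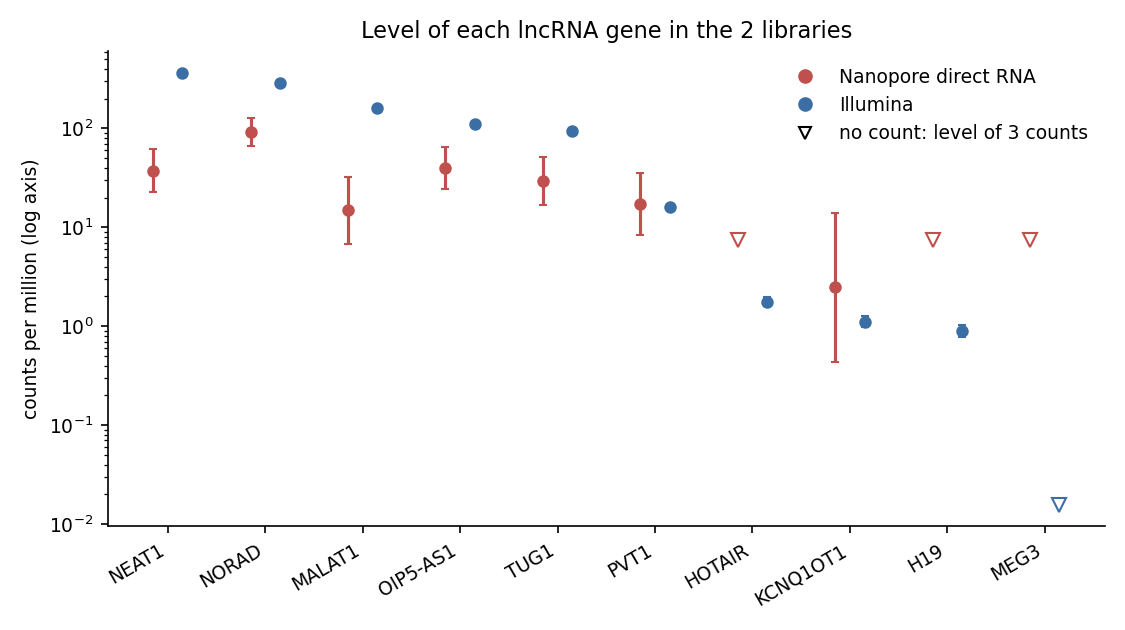
Level of each of the 10 lncRNA genes in CPM on a log axis, by Nanopore (red) and Illumina (blue), 1 library each, with 95% Wilson intervals for counting error. Open triangles mark a gene with no count, drawn at the level of 3 counts. NEAT1, NORAD, MALAT1, OIP5-AS1 and TUG1 are higher by Illumina with intervals that do not overlap, and PVT1 is level.

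NORAD, TUG1 and OIP5-AS1 were also higher by Illumina in CPM, by about 3-fold, a direction that turned on some length-scaled values given further on. NORAD (ENSG00000260032, chromosome 20, 36045618 to 36051018, - strand) had 37 and 54750 counts. The Illumina level of 286 CPM (283 to 288) was 3.11-fold the Nanopore level of 91.8 CPM (66.6 to 126), with an exact interval of 2.26 to 4.42. It was the member with the most Nanopore counts, whereas NEAT1 had the most Illumina counts. TUG1 (ENSG00000253352, chromosome 22, 30969245 to 30979395, + strand) had 12 and 18293 counts, or 29.8 CPM (17.02 to 52.02) and 95.4 CPM (94.03 to 96.8), a 3.21-fold difference (1.83 to 6.21). OIP5-AS1 (ENSG00000247556, chromosome 15, 41283958 to 41322392, + strand) had 16 and 21128 counts, or 39.7 CPM (24.4 to 64.5) and 110.2 CPM (108.7 to 111.7), a 2.78-fold difference (1.71 to 4.86). The 3 intervals for the fold overlap each other widely.

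PVT1 was at the same level on both platforms within counting error. PVT1 (ENSG00000249859, chromosome 8, 127794526 to 128187101, + strand) had 7 Nanopore counts, 17.4 CPM (8.41 to 35.8), and 3079 Illumina counts, 16.06 CPM (15.5 to 16.6). The Nanopore CPM was 1.08-fold the Illumina CPM, and the exact interval of 0.434 to 2.23 leaves room for differences of more than 2-fold in either direction.

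The other 4 genes were too rare for a comparison. In all, 7 members had a Nanopore count and 9 an Illumina count, as did 15660 and 27323 of all 58735 genes. KCNQ1OT1 (ENSG00000269821, chromosome 11, 2597308 to 2700003, - strand), which lies antisense to KCNQ1, had 1 Nanopore and 214 Illumina counts. Its levels were 2.48 CPM (0.438 to 14.05) and 1.12 CPM (0.976 to 1.28), a ratio of 2.22 with an exact interval of 0.0560 to 12.5. HOTAIR (ENSG00000228630, chromosome 12, 53962308 to 53974956, - strand) had 0 and 340 counts, and H19 (ENSG00000130600, chromosome 11, 1995166 to 2004552, - strand) had 0 and 172. Their Illumina levels of 1.77 CPM (1.59 to 1.97) and 0.897 CPM (0.773 to 1.04) lie under the 7.44 CPM that 3 Nanopore counts stand for, so no fold can be given. The Nanopore depth would have given 0.715 and 0.362 counts at these levels. MEG3 (ENSG00000214548, chromosome 14, 100779410 to 100861031, + strand), a maternally expressed RNA of the DLK1 locus, was listed at 0 in both libraries.

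Calls were made over the whole tables. Genes whose 2 levels averaged 5 CPM or more, 12414 in all, entered an exact binomial test of both sides, conditional on the library totals, with Benjamini-Hochberg adjustment over all of them. A call also needed a 4-fold difference in log2(CPM + 1), a scale that understates differences of rare genes. Of the 10 members, 6 passed the 5 CPM filter. MALAT1 and NEAT1, 2 of these 6, were called higher by Illumina, where 7.31% of all tested genes and 1.54% of the 1364 tested lncRNA genes were. No member was called higher by Nanopore by the exact binomial test, nor was any at an unadjusted p under 0.05, where 12.9% of all tested genes and 63.9% of tested lncRNA genes were called. The log2 ratios of Nanopore to Illumina were −3.37 for MALAT1 and −3.27 for NEAT1, with exact binomial adjusted p-values of 1.03e-19 and 1.20e-42. They were −1.63 for NORAD, −1.65 for TUG1 and −1.45 for OIP5-AS1, with exact binomial adjusted p-values of 4.68e-16, 6.35e-06 and 8.64e-06, so these 3 passed the test but not the 4-fold limit. Without that limit 5 of the 6 passed as higher by Illumina, where 27.2% of all tested genes did, and 20.2% passed as higher by Nanopore. PVT1, at a log2 ratio of 0.11, did not pass (exact binomial adjusted p = 1).

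Among all tested genes the median log2 ratio was −0.42 (quartiles −1.18 and 0.54), and among the tested lncRNA genes it was 2.95 (1.13 and 4.24). The median of the 6 tested members was −1.64. A ratio below that of MALAT1 was found for 2.26% of all tested genes and 0.367% of tested lncRNA genes, and below that of NEAT1 for 2.35% and 0.440%. For NORAD these shares were 13.9% and 2.93%. Most tested lncRNA genes share bases with another gene, and the 30 that overlap none had a median of 0.06 (−1.17 and 0.80), with 15 above 0 and 15 below. NORAD is 1 of these 30. Among all 2810 tested genes that overlap no other gene, 3.06% were called higher by Nanopore and 9.15% higher by Illumina, and NORAD was not called. Among the tested genes with at least 5000 exonic bases, 6006 genes, the median was −0.80, and the tested members all have at least that length.

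**Figure D2:**
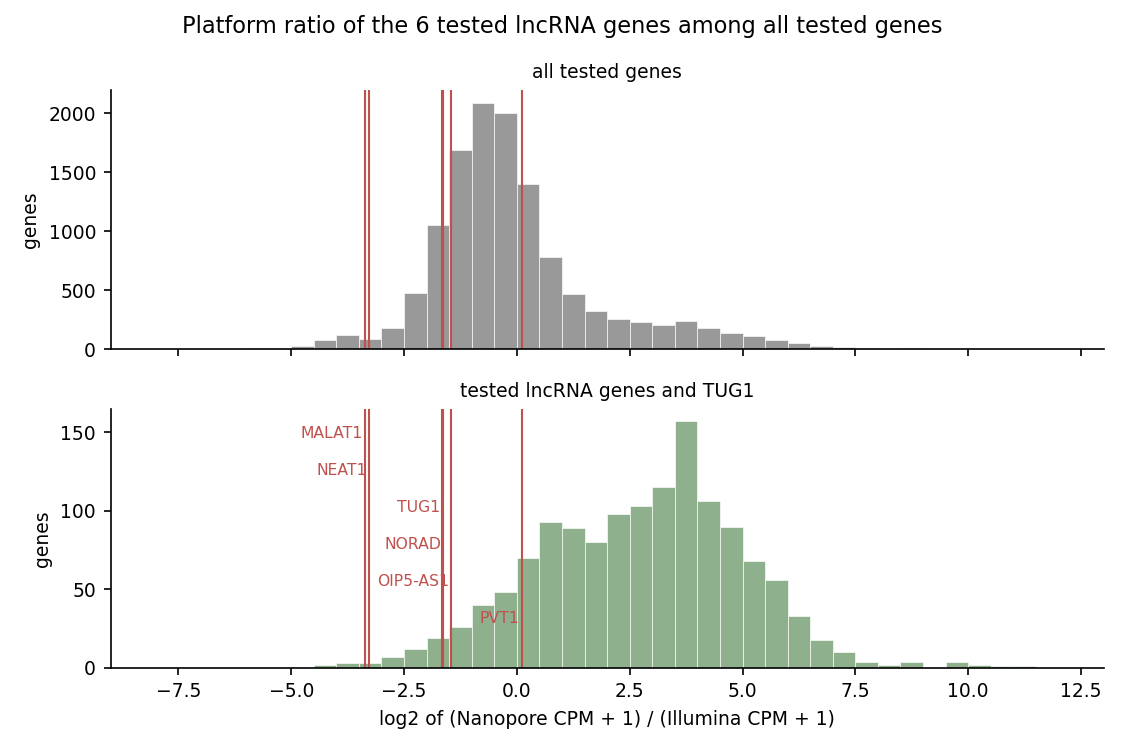
Number of genes (vertical axis) by log2 ratio of Nanopore to Illumina CPM, each plus 1 (horizontal axis), for all 12414 tested genes (upper panel) and the 1364 tested lncRNA genes and TUG1 (lower panel). Red lines mark the 6 tested members: MALAT1 at −3.37 and NEAT1 at −3.27 lie at the low end of both panels, and PVT1 at 0.11 is the only one above 0.

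Whether members differed from each other was read from the odds ratio of their counts in the 2 libraries, which needs no scaling between libraries. There were 15 pairs of tested members, and the exact conditional 95% interval excluded 1 in 11 of them. The Nanopore to Illumina ratio of MALAT1 was 0.284 of that of NORAD (0.0980 to 0.679), 0.293 of that of TUG1 (0.0901 to 0.843) and 0.254 of that of OIP5-AS1 (0.0813 to 0.682). For NEAT1 these values were 0.316 (0.161 to 0.590), 0.325 (0.142 to 0.761) and 0.282 (0.130 to 0.609). MALAT1 and NEAT1 could not be told apart, at 0.900 (0.286 to 2.45), nor could NORAD, TUG1 and OIP5-AS1 from each other. PVT1 had a higher ratio than each of the other 5.

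These differences depended on the length given to each RNA. A fragmented library yields more reads from a longer RNA, whereas direct RNA sequencing gives at most 1 read per strand. With Illumina counts divided by length and rescaled (TPM), the interval excluded 1 in 10 of the 15 pairs by union exonic length, in 7 by mean transcript length and in 1 by longest transcript. MALAT1 against NORAD became 0.549 (0.189 to 1.31) by union exonic length and 0.120 (0.0415 to 0.288) by mean transcript length. NEAT1 against NORAD became 1.33 (0.679 to 2.48) by union exonic length and 0.273 (0.139 to 0.510) by mean transcript length. The span is wide because annotated NEAT1 transcripts reach 22743 bases with a mean of 4668, and MALAT1 transcripts reach 10434 bases with a mean of 2289. NORAD has a single transcript of 5401 bases. The gene tables do not separate isoforms.

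**Figure D3:**
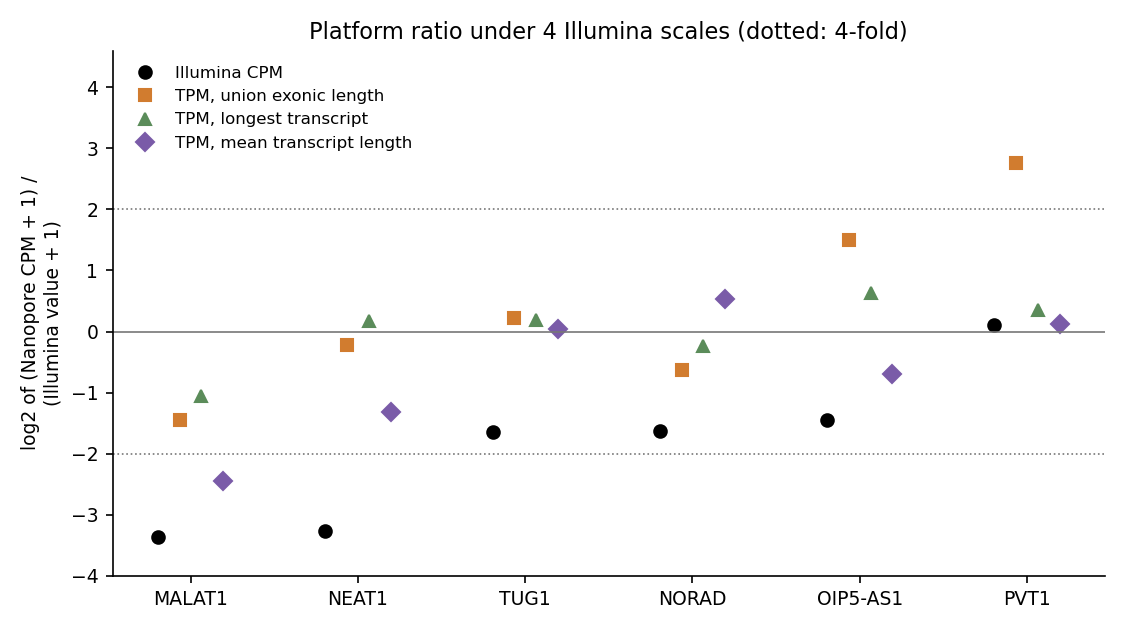
Log2 ratio of Nanopore CPM plus 1 to the Illumina value plus 1 for the 6 tested members, with the Illumina value as CPM (circles) or as TPM by union exonic length (squares), longest transcript (triangles) or mean transcript length (diamonds). MALAT1 is below 0 on all 4 scales, from −3.37 to −1.05, whereas NEAT1, NORAD, TUG1 and OIP5-AS1 cross 0 on at least 1 scale.

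OIP5-AS1 passed the test in the opposite direction by union exonic length, at a log2 ratio of 1.504 (exact binomial adjusted p = 0.0011). TUG1 turned to between 0.042 and 0.22 on the 3 length scales, NORAD to 0.53 by mean transcript length and NEAT1 to 0.17 by longest transcript, and none of these passed. MALAT1 was lower by Nanopore on each of these scales. Its log2 ratio was −1.45 by union exonic length and −2.44 by mean transcript length, with exact binomial adjusted p-values of 0.0109 and 4.18e-08. By longest transcript it came to −1.05 and did not pass (exact binomial adjusted p = 0.114). PVT1 went to 2.76 by union exonic length, with an exact binomial adjusted p-value of 7.01e-05. That length, 25431 bases, adds up 190 annotated transcripts of at most 2450 bases, and by longest transcript PVT1 was at 0.35.

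As a share of lncRNA counts, the members held less by Nanopore than by Illumina. Together they had 94 Nanopore counts, 0.236% of those on lncRNA genes (Wilson interval 0.193 to 0.288%), and 199511 Illumina counts, 4.63% (4.61 to 4.65%). These shares also depend on the class total. All lncRNA genes summed to 39872 counts in the Nanopore library of 403235, and to 4.31e+06 in the Illumina library of 191741714. The members themselves summed to 233 CPM by Nanopore and 1040.5 CPM by Illumina. Relative to the whole library, the members were thus lower by Nanopore and the class was higher, and both enter the contrast in shares. How much each contributes was not tested. Without NORAD, the most abundant member by Nanopore, the Nanopore share was 0.143%. Without NEAT1, the most abundant by Illumina, the Illumina share was 3.05%. The Illumina share in TPM by union exonic length was 0.699%. NORAD, alone among the members in overlapping no other annotated gene, ranked first among lncRNA genes of that kind by Nanopore counts and by Illumina TPM. It held 12.5% of their Nanopore counts (9.21 to 16.8%), 30.2% of their Illumina counts (29.95 to 30.4%) and 12.995% of their Illumina TPM. That TPM share lies inside the Nanopore interval, so for NORAD among these genes the contrast was not seen per length. Among all lncRNA genes NORAD ranked 166 by Nanopore counts and 31 by Illumina TPM. NEAT1 ranked 439 and 124, and MALAT1 887 and 131. By Illumina counts, which favour long RNAs, NEAT1 ranked 8, NORAD 11 and MALAT1 20. Of the 39872 Nanopore counts on lncRNA genes, only 296 were on genes that overlap no other gene, and 181519 of the Illumina counts were. Most genes ranked above the members may thus hold reads of an overlapping gene, so these ranks do not show that those lncRNAs were more abundant.

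Ordered by Nanopore level, where a strand gives at most 1 read, the members ran NORAD, OIP5-AS1, NEAT1, TUG1, PVT1, MALAT1 and KCNQ1OT1. The Wilson interval of NORAD lies above those of all the others, and the intervals of OIP5-AS1, NEAT1, TUG1, PVT1 and MALAT1 overlap their neighbours. By Illumina TPM over union exonic length the order was NORAD (143 TPM), NEAT1 (43.6), MALAT1 (42.3), TUG1 (25.5), OIP5-AS1 (13.3), PVT1 (1.71), HOTAIR (1.54), H19 (0.702) and KCNQ1OT1 (0.0326). With mean transcript length NEAT1 (94.3 TPM) and MALAT1 (85.4) came before OIP5-AS1 (64.7) and NORAD (63.5), so the order among these depends on the length used.

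The bodies of 9 of the 10 members, all but NORAD, share bases with other annotated genes. There are 47 such genes, of which 46 were analysed and 37 of those share exonic bases with the member. How reads over shared bases were assigned is not given in the sources used here. Of the 37 rows, 12 had Nanopore counts, 15 had Illumina counts and 18 had neither. Reads that both rows may have counted cannot be separated, so no test was made.

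Inside MALAT1, the mascRNA position shown above, ENSG00000274072, had 4 Nanopore counts, 66.7% of the MALAT1 count of 6, and no Illumina count. The tables do not say whether the 4 reads are among the 6, nor how far each read extends to either side of the cut site. The antisense TALAM1, which covers 8121 exonic bases of MALAT1, was not analysed here. NEAT1 contains 3 short rows typed as miscellaneous RNA, which start 499, 864 and 1186 bases from its 5′ end. In that order, ENSG00000278144 had 1 Nanopore and 50 Illumina counts, ENSG00000278050 had 1 and 0, and ENSG00000277599 had 3 and 531. MIR612, a microRNA gene near the 3′ end of the long isoform, was at 0 in both libraries.

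TUG1 is crossed by 2 lncRNA genes on the opposite strand near its 3′ end. ENSG00000269987 (chromosome 22, 30976515 to 30978848) shares 546 exonic bases with TUG1 and had 11 Nanopore counts, beside 12 for TUG1. Its 916 Illumina counts were 5.01% of those of TUG1. ENSG00000269972 (30977516 to 30977858) shares 264 bases and had 6 and 399 counts, the latter 2.18% of the TUG1 count. On the strand of TUG1, the short rows ENSG00000276965, ENSG00000275307 and ENSG00000276664 had 100, 38 and 21 Illumina counts and no Nanopore count. Whether the Nanopore counting used strand is not given in the sources used here.

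**Figure D4:**
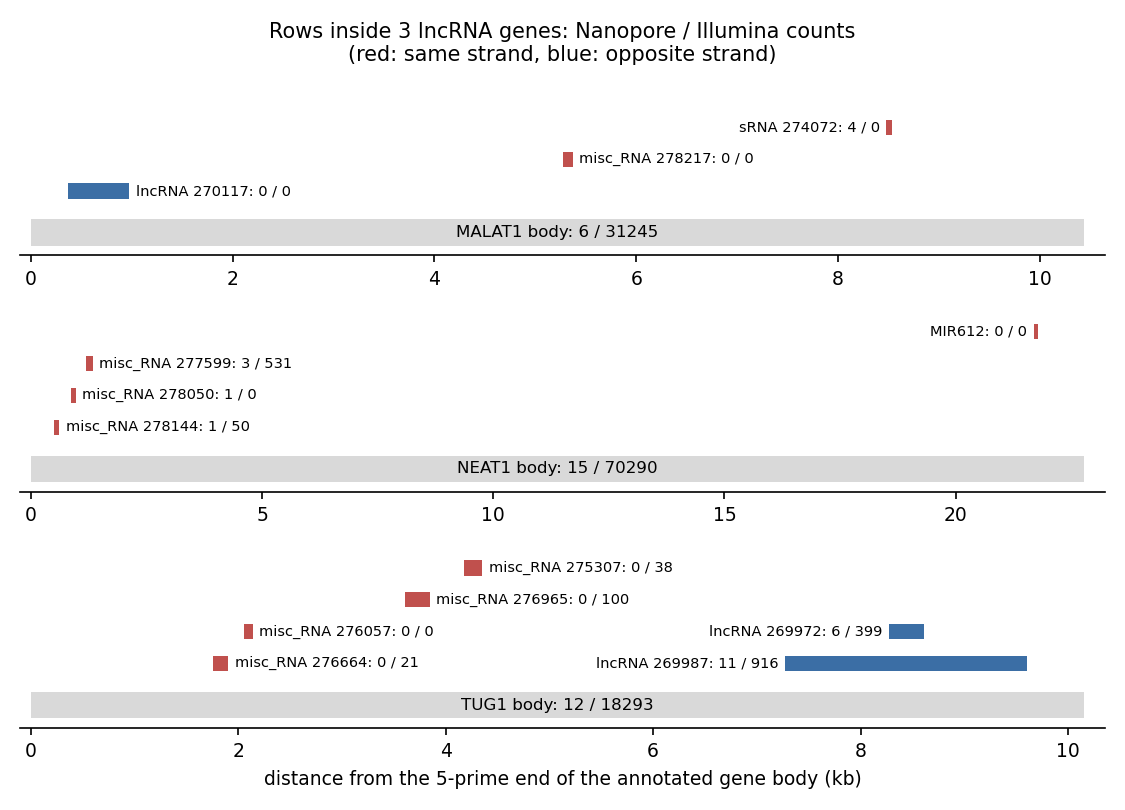
Rows of the count tables that share exonic bases with MALAT1, NEAT1 and TUG1, drawn to scale along each annotated gene body (kb from its 5′ end) and labelled by type, the last 6 digits of the identifier, and Nanopore / Illumina counts. Red boxes are on the same strand as the gene and blue boxes on the opposite strand; the smallest boxes are widened to be visible. The row at the MALAT1 mascRNA position has 4 Nanopore counts and no Illumina count. The opposite-strand rows in TUG1 have 11 and 6 Nanopore counts.

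OIP5-AS1 overlaps OIP5 on the opposite strand, a gene of centromere assembly, and 2 genes on its own strand. OIP5 shares 759 exonic bases with it and had 9 Nanopore and 2241 Illumina counts. NUSAP1, which encodes a spindle protein, shares 195 bases and had 39 and 23979 counts. ENSG00000285920, a protein-coding gene from 41284007 to 41380996, shares 513 bases and had 54 and 18544 counts. Its body also covers most of NUSAP1 (41320794 to 41381050), so its counts cannot be tied to the bases shared with OIP5-AS1. Within PVT1, the microRNA row MIR1204 and the row ENSG00000278324 had 1 and 3 Nanopore counts and no Illumina count, beside 7 Nanopore counts for PVT1. Other rows that share exonic bases with PVT1 went the other way. MIR1206, RNVU1-32, RNU4-25P and ENSG00000278275 had 24, 7, 7 and 2 Illumina counts and no Nanopore count. KCNQ1, which encodes a potassium channel, had 1 Nanopore count, as did KCNQ1OT1, and 22 Illumina counts. HOXC11, whose body overlaps that of HOTAIR without shared exonic bases, had 0 and 794 counts. MIR675, which lies in an H19 exon, and MIR770, which lies in a MEG3 exon, were at 0 in both libraries.

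Sequence features of known function were looked up for NORAD and OIP5-AS1, the members with the most Nanopore counts. The Pumilio motif TGTANATA, searched on the transcript strand with overlaps allowed, occurs 15 times in NORAD, or 2.78 per kilobase. Only 0.0771% of the longest transcripts of 6483 lncRNA genes of at least 1000 bases reached that density. Among the longest transcripts of the other members, the motif occurs 9 times in KCNQ1OT1, 6 in NEAT1, 3 in HOTAIR (1.24 per kilobase, the next highest density), 2 in TUG1 and 1 each in MEG3 and OIP5-AS1. It is absent from those of MALAT1, H19 and PVT1. In the longest OIP5-AS1 transcript, the stretch shown next pairs with miR-7-5p. Capitals mark the seed of the microRNA and its match in the lncRNA, and the microRNA is from RefSeq (GRCh38.p14).
hsa-miR-7-5p: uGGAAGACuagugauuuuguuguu
OIP5-AS1 longest transcript, bases 2916 to 2941: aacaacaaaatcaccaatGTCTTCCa
Beside the seed, all 12 bases of miR-7-5p beyond its base 12 can pair when 2 unpaired bases of the lncRNA are allowed. The transcript of 8881 bases holds 3 seed matches, and 66.7% of the 93 lncRNA transcripts of at least 8000 bases hold at least 1. The counts do not bear on microRNA binding.

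Transcripts of genes for proteins that work with these RNAs were counted in both libraries. All 15 genes for paraspeckle and nuclear speckle proteins had counts in both, and all 15 had a negative log2 ratio, with a median of −1.24 beside −0.42 for all tested genes. By the exact test 12 of them passed as higher by Illumina and 0 as higher by Nanopore, where 27.2% and 20.2% of all tested genes passed. With the 4-fold limit 1 of the 15 was called, higher by Illumina, where 7.31% of all tested genes were. NONO and SFPQ, the core paraspeckle pair, had 75 and 100 Nanopore counts and 84553 and 102192 Illumina counts. Of 11 genes for the enzymes that cut the MALAT1 and NEAT1 ends or process the tRNA-like RNA cut from them, 10 were tested. None was called, 2 passed the exact binomial test as higher by Illumina, and the median was −0.42. With Illumina TPM by union exonic length, 1 gene of each of these lists was called higher by Nanopore and none higher by Illumina. By mean transcript length 2 speckle or paraspeckle genes were called higher by Illumina and none higher by Nanopore. ELAC2, the RNase Z that trims the tRNA-like end, had 18 and 20189 counts, and POP7, an RNase P subunit, had 18 and 5999.

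Of the 11 RNA-binding and chromatin partners, all had a negative log2 ratio, as did 7843 of all 12414 tested genes. The median was −1.03, and 7 passed the exact test as higher by Illumina, where 27.2% of all tested genes did. EZH2, the Polycomb methyltransferase linked to HOTAIR, was the only one past 4-fold, with 2 Nanopore and 10717 Illumina counts, 11.3-fold higher by Illumina (3.12 to 93.06). By TPM over union exonic length no gene of these partners was called, and by mean or longest transcript length 1 was, higher by Illumina. Of 18 genes neighbouring the members, 10 were tested. FRMD8 (3 and 8370 counts), near NEAT1 and MALAT1, and MORC2 (3 and 8456), beside TUG1, were called higher by Illumina. Of all tested genes, 7.31% were called so and 12.9% were called higher by Nanopore. CDKN1C, the imprinted growth inhibitor of the KCNQ1OT1 domain, was called higher by Nanopore, with 11 and 660 counts, a 7.93-fold difference (3.94 to 14.3). MYC, beside PVT1, had 98 and 41721 counts and was not called. IGF2, the partner of H19, and DLK1 and RTL1, the partners of MEG3, were at 0 in both libraries, as was HOXC12.

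Of 32 other characterised lncRNA genes, 30 were matched by symbol and 12 were tested. Their median log2 ratio was 0.36, with 8 above 0 and 4 below, beside a median of 2.95 for all tested lncRNA genes. DLEU2 alone of the 12 was called higher by Nanopore, where 63.9% of tested lncRNA genes were. It had 18 and 1724 counts, and its body overlaps 15 other genes. The call was lost with a pseudocount of 5 CPM. LINC00963, with 2 and 7287 counts, was the only one called higher by Illumina, where 1.54% of tested lncRNA genes were. MIR205HG, host of a basal-epithelial microRNA, had the most Nanopore counts of the list, 40, and 12403 Illumina counts. The 9 listed genes for RNAs that carry no poly(A) tail together had 4 Nanopore and 5218 Illumina counts. RN7SL1 and RN7SL2, the signal recognition particle RNAs, had 2 and 1 Nanopore counts and 2062 and 2136 Illumina counts. These are short RNAs, and per union exonic length they stood at 97.4 and 100.6 Illumina TPM, below NORAD and above the other members. RMRP, RPPH1 and RN7SK had Illumina counts of 333, 96 and 585 and no Nanopore count.

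The genes with a platform pattern nearest to those of NEAT1 and NORAD were sought among 10744 lncRNA and protein-coding genes that overlap no other gene. Distance was measured in log2(CPM + 1) over the 2 libraries. Nearest to NEAT1 were MKI67 (20 and 61907 counts), PRRC2C (13 and 47072) and FN1 (22 and 50517), at distances of 0.44, 0.61 and 0.72. Nearest to NORAD were SUPT16H (36 and 53279), ANP32E (36 and 56265) and PSMC3 (36 and 57181), at distances of 0.055, 0.055 and 0.074.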

How the data were processed

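Each platform contributed 1 table of gene counts, assigned by its title. The authors deposited whole-number counts per Ensembl gene without normalization. The submitters' processing notes name hg38, minimap2 2.11-r797, HISAT2 2.1.0 and featureCounts, without roles. The annotation release and the options for strand, overlaps and multi-mapping are not given in the sources used here, and a suffix in the Nanopore column name is unexplained, so whether the reads were corrected before counting is unknown. Of the 58735 identifiers, 58207 matched GENCODE release 44, the source of names, coordinates and lengths, and that release may differ from the one used for counting. Counts were scaled to CPM, with a pseudocount of 1 CPM for log2 ratios. Tests were exact conditional binomial tests (SciPy 1.17.1) with Benjamini-Hochberg adjustment over 12414 genes (mean over both libraries 5 CPM or more). A check on simulated data drew counts with counting error alone, as the test assumes. That check bears on the code and not on spread between libraries, amplified reads, length or overlapping genes. The tests compare these 2 libraries only. Intervals for single levels and shares are 95% Wilson intervals, those for ratios are exact. TMM factors came from edgeR 4.0.16. An overlap is any shared base of 2 gene bodies in GENCODE release 44, on either strand. Named genes were all members, genes sharing exons with a member, and called or abundant genes of the listed groups. NONO, SFPQ, MYC, MIR205HG, RMRP, RPPH1, RN7SK, PECAM1 and genes at 0 were named after their values were seen. Members and lists were chosen with earlier results of these data known, and the comparison of member pairs was added after their values were seen. Sequences were read from hg38 and RefSeq. Single genes of the lists that are withheld are not reported here.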

Additional observations from a re-analysis of the deposited data

How the results depend on the processing

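The calls of MALAT1 and NEAT1 as higher by Illumina held with pseudocounts of 0.1 and 5 CPM, TMM or median-ratio scaling and minimum means of 1 or 20 CPM or none. Dividing Illumina counts by length changed them. By union exonic length 0 members were called higher by Illumina and 1, PVT1, higher by Nanopore. By longest transcript 0 were called higher by Illumina, and by mean transcript length 1, MALAT1. A 2-fold limit gave 5 members higher by Illumina, where 27.2% of all tested genes passed with no fold limit. Testing only genes without overlap gave 0, since NORAD is then the only member left. The share of all tested genes called at the 2-fold limit or on the length scales is not given here. Counts of called members and listed genes under those settings therefore have no background beside them. The log2 ratio of TUG1 turned to 0.22, 0.042 and 0.18 by union, mean and longest length, that of OIP5-AS1 to 1.504 by union and 0.63 by longest length, that of NEAT1 to 0.17 by longest length and that of NORAD to 0.53 by mean length. These changes follow from the lengths divided by. With a pseudocount of 5 CPM no neighbouring gene was called in either direction, so FRMD8, MORC2 and CDKN1C lost their calls, as did DLEU2. By union exonic length 6 of the other lncRNA genes were called higher by Nanopore and 0 higher by Illumina, and 4 RNAs without a tail were called higher by Illumina. TMM and median-ratio scaling raised all log2 ratios of scaled counts by 0.088 and 0.13. The members' share of lncRNA counts was 12.5% by Nanopore and 30.2% by Illumina among genes without overlap (NORAD only), 0.143% and 3.05% without the most abundant member, and 0.699% in Illumina TPM. With a minimum of 10 counts Nanopore detected 4 members in place of 7, while Illumina kept 9. A fixed count stands for a different level at each depth. With Illumina counts thinned to the Nanopore total, 7.45 members were detected on average over 20 draws, beside 7 by Nanopore. At the Nanopore depth 1 count is 2.48 CPM, so a lower Nanopore level of KCNQ1OT1, HOTAIR or H19 was not detectable. The exact intervals of their Nanopore to Illumina ratios reached up to 12.5, 5.19 and 10.3. MEG3 had no count on either platform. No paired analysis was possible because each platform has 1 library.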
